A study of Caenorhabditis elegans with 2 samples.

Results

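The 6 genes described here, of 19973 protein-coding genes on the 6 worm chromosomes, were chosen by name, with earlier results of these data known. They are the C/EBP genes cebp-1 and cebp-2, the downstream neighbour lpd-2, the regulator zip-2 and its target genes irg-1 and irg-2. The assay was ChIP-seq, which sequences the DNA that comes down with a protein, here CEBP-2 in whole Caenorhabditis elegans. The series holds 1 group of 2 biological replicates, and every worm was of strain OP331, a young adult of 64 h grown from L1 larvae that had been starved after bleaching. The strain carries the insertion wgIs331, which holds cebp-2 (C48E7.11) joined to TY1, EGFP and 3xFLAG tags together with unc-119(+), in an unc-119(ed3) background. Sonicated chromatin was precipitated with an anti-GFP antibody, so the peaks are those of the tagged protein made from the insertion, with all tissues of the worm together. The copy number of the insertion and the limits of the worm DNA in it are not given in the labels, and no control precipitation was used here.

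C/EBP proteins are basic leucine zipper (bZIP) transcription factors, which bind DNA as pairs. In the worm, ZIP-2 takes part in a surveillance response: when toxins or infection by Pseudomonas aeruginosa block translation, ZIP-2 protein is made and infection response genes such as irg-1 are switched on in the intestine, and CEBP-2 is known as a partner of ZIP-2 in that response. CEBP-1 is best known for its work downstream of the kinase DLK-1 in axon regrowth. The gene lpd-2 was named for the reduced fat of worms in which it is knocked down.

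For each gene the window ran from 2000 bp upstream of the 5' end to 1000 bp past the gene end, and every peak that shared at least 1 bp with it was counted. The ranked list of both replicates together held 112494 peaks, most of them weak, and 1.26% of them were also in the main list, the authors' list of peaks that passed their threshold on the irreproducible discovery rate (IDR), which is low for peaks that keep their rank when the list is made again from other reads. Each peak carries a signal value and a score from the authors' processing. The signal value ranks peaks within a list, and the score rises with reproducibility to a ceiling of 1000 and was 830 or more in every thresholded list. The files hold no read counts, so depth is unknown and a peak that is absent may not have been detectable.

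Peaks of the main list lay in the windows of 5 of the 6 genes, against 8.93% of all protein-coding genes in windows drawn the same way. Of the 6 genes, irg-1 alone had none. The genes were chosen with earlier results of these data known, so the contrast with all genes is a description only. The main peaks at zip-2, cebp-1, cebp-2 and lpd-2, and irg-2 came to 5 distinct peaks, because zip-2 had 2 and the adjacent genes cebp-2 and lpd-2 shared 1. All 5 were also in the authors' conservative thresholded list, which reached 7.09% of genes. The sequences of the zip-2 and cebp-1 peaks of highest signal, and the sequences just upstream of irg-2 and irg-1, are shown first. The main peak past the zip-2 end and the one shared by cebp-2 and lpd-2 are not shown. The sequences shown were read from the reference genome, build ce11, 5' to 3' on the strand of the gene. Capitals mark matches on either strand to TTGCNNAA, a loose form of the C/EBP sequence.

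The zip-2 peak covered chrIII:833788-834057, plus strand.
zip-2 intron peak: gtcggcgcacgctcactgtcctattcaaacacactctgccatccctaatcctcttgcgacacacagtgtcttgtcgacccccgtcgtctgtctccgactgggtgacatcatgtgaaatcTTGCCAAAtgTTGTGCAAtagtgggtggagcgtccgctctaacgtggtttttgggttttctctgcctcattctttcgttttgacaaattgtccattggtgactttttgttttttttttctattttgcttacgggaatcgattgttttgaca
The cebp-1 peak covered chrX:1454486-1454755, given on the minus strand.
cebp-1 upstream peak: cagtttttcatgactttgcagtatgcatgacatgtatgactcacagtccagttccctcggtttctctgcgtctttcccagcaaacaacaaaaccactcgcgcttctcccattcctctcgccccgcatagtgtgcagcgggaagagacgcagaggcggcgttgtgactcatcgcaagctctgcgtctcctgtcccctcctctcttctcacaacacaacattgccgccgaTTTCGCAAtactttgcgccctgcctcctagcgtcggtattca
The sequence between the 5' ends of irg-2 and the divergent gene C49G7.10 covered chrV:4042022-4042180, plus strand.
irg-2 and C49G7.10 shared upstream sequence: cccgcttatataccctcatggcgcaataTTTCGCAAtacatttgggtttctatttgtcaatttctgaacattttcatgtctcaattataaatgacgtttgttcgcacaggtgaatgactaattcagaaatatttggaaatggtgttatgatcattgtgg
The sequence between irg-1 and the next annotated gene upstream, a pseudogene, covered chrV:3523374-3523586, plus strand.
irg-1 upstream sequence: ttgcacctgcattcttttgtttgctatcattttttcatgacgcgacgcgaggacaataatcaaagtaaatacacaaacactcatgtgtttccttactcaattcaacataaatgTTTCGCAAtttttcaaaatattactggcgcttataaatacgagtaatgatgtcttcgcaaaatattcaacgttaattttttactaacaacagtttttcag
The zip-2 peak held 2 matches, centred 13 bp and 3 bp before its summit, the position of highest signal in the peak. The cebp-1 peak held 1 match, 98 bp from its summit, and the irg-2 peak held 1, 35 bp from its summit. The match upstream of irg-1 lay 93 bp before the 5' end, outside every ranked peak.

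Across the windows TTGCNNAA was present in 3 of the 5 main peaks, all but the one past the zip-2 end and the one shared by cebp-2 and lpd-2. TTGCNNAA was in 12 of 39 ranked peaks, or 30.8%. The same letters were in 26.3% of all ranked peaks, in 22.7% of all main peaks and in 27.3% of all promoters, taken as 250 bp before to 50 bp after the 5' end, so the share of the 39 was near the background. In short windows centred on the summit, TTGCNNAA was in 2 of the 5 main peaks, against 7.96% of all main peaks, and in 4 of the 39, against 10.8% of all ranked peaks; 5 peaks are too few to set a share against the background. The stricter palindrome TTGCGCAA was in 0 of the 39 peaks, as were TTACGTAA and TGACGCAA, which were in 0.461%, 0.237% and 0.596% of all ranked peaks. TGATGCAA, a form bound by C/EBP and ATF pairs, was in 1 of the 39 (2.56%), against 1.23% of all ranked peaks. This was the peak over the 5' end of zip-2, which was outside the main list. All motifs were sought on both strands, TTGCGCAA is itself a form of TTGCNNAA, and no match is shown to be a binding site. The matches upstream of irg-1 and irg-2 and in the cebp-1 peak were the same 8 letters, TTTCGCAA. This was noticed after the sequences had been seen. TTTCGCAA was present in 3.26% of promoters, 2.03% of ranked peaks and 3.17% of main peaks.

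zip-2 (WBGene00019327, chrIII:832982-835814, plus strand) had the highest signal of the 6 genes. The window held 12 ranked peaks, and the highest, with a signal of 136 and a score of 1000, was 99th of the 1419 peaks of the main list. Its summit lay 941 bp after the annotated 5' end, in an intron of the longest transcript, K02F3.4.3, and 165 bp and 382 bp upstream of the starts of the shorter transcripts K02F3.4.1 and K02F3.4.2. The −log10 of its global IDR was 3.55. On the replicates' own ranked lists the peak had a signal of 36.2 in replicate 1 (score 505) and of 92.8 in replicate 2 (score 1000). Replicate 2 alone held it in its own thresholded list. In replicate 1 it was above 98.7% of that replicate's ranked peaks, and in replicate 2 above 99.8%. A gene for a small nucleolar RNA, K02F3.15, lay 179 bp from this peak, and its part in the signal was not tested.

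The other main peak in the zip-2 window, at chrIII:835929-836198, had a signal of 107 and was 208th in the main list. Its summit was 3082 bp from the zip-2 5' end, past the gene end, in a coding exon of dos-3. Replicate 1 had a signal of 56.8 (score 1000) and replicate 2 of 52.8 (score 875), and both peaks were in the own thresholded lists. The signal scales of the own lists differ, so these signals cannot be compared directly. Within its own ranked list the replicate 1 peak was above 99.7% of peaks, and the replicate 2 peak above 99.1%. The replicate 2 summit was 135 bp to the left of the pooled summit, and a further replicate 2 peak of signal 32.8 covered the right side. The strongest zip-2 peak in replicate 1 was therefore the one past the gene end, and in replicate 2 the one in the intron. Between them, at chrIII:834371-834640, a peak of signal 70.5 and score 752 was outside the main list, the nearest to the threshold of all peaks in the 6 windows that did not pass. The peak over the 5' end itself, in the 5' UTR and an exon of linc-37, had a signal of 46.2 and a score of 391.

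The window of cebp-1 (WBGene00016997, chrX:1452695-1453868, minus strand) held 8 ranked peaks and 1 main peak, between genes, with its summit 753 bp upstream of the 5' end. Its signal was 76.5, close to the main list's median of 77.0, and its rank was 734 of 1419. Its score was 1000 in the main list and 863 in the conservative list, and its −log10 of the global IDR was 2.43. In replicate 1 the peak there had a signal of 26.8 (score 336) and in replicate 2 of 45.9 (score 371), and neither replicate's own thresholded list held it. The highest of the other 7 peaks were 43.3, past the gene end, and 38.3, in a coding exon, and the peak nearest to the 5' end had 29.8.

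cebp-2 (WBGene00016754, chrI:6253082-6253584, plus strand), the gene carried by the insertion, and lpd-2 (WBGene00003059, chrI:6253701-6254947, plus strand) lie 116 bp apart on the same strand, and most of their windows coincide. Their shared main peak, chrI:6253918-6254187, lay in an intron of lpd-2, 352 bp after the lpd-2 start and 971 bp after the cebp-2 start. Its signal of 73.3 was 860th in the main list, and its −log10 of the global IDR was 2.87. Replicate 1 had a signal of 40.0 (score 831), just inside its own thresholded list, and replicate 2 of 44.0 (score 501), outside. The cebp-2 gene body held no peak of the ranked list of both replicates. The replicates' own lists each had a peak of low score over it, at places that did not overlap. The replicate 1 peak (signal 12.3, score 50) had its summit in the cebp-2 intron, and the replicate 2 peak (signal 22.1, score 88) in the 3' UTR. With 1000 bp upstream and nothing past the gene end, cebp-2 lost its main peak, and lpd-2 kept it.

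irg-2 (WBGene00016783, chrV:4042181-4043601, plus strand), an infection response gene, had its main peak at the 5' end. The peak, chrV:4041953-4042222, had a signal of 106, a score of 1000 and a −log10 of the global IDR of 3.21, and was 214th in the main list. Its summit was 93 bp upstream of irg-2 and 67 bp upstream of C49G7.10, which is transcribed the other way from a start 159 bp off, so the peak cannot be assigned to either gene. Replicate 1 had a signal of 30.5 (score 474), outside its own thresholded list, and replicate 2 of 74.9 (score 1000), inside. These 2 peaks were above 96.9% and 99.7% of their own lists. Of the other 6 peaks the highest, with a signal of 60.7 and a score of 575, lay in a coding exon of phat-3 past the gene end.

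irg-1 (WBGene00015574, chrV:3523587-3524679, plus strand), the best known target of ZIP-2, had 8 ranked peaks and none in any thresholded list. The highest had a signal of 39.6 and a score of 345, in a coding exon 951 bp after the start. The nearest peak upstream, 319 bp before the 5' end and in the pseudogene, had a signal of 31.7 and a score of 157. In replicate 1 the highest signal was 26.9 (score 88), in the same coding exon, and in replicate 2 it was 18.5 (score 30), in the next gene. Neither replicate had a peak at the irg-1 5' end, and none was detectable there in the ranked list of both.

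**Figure D1:**
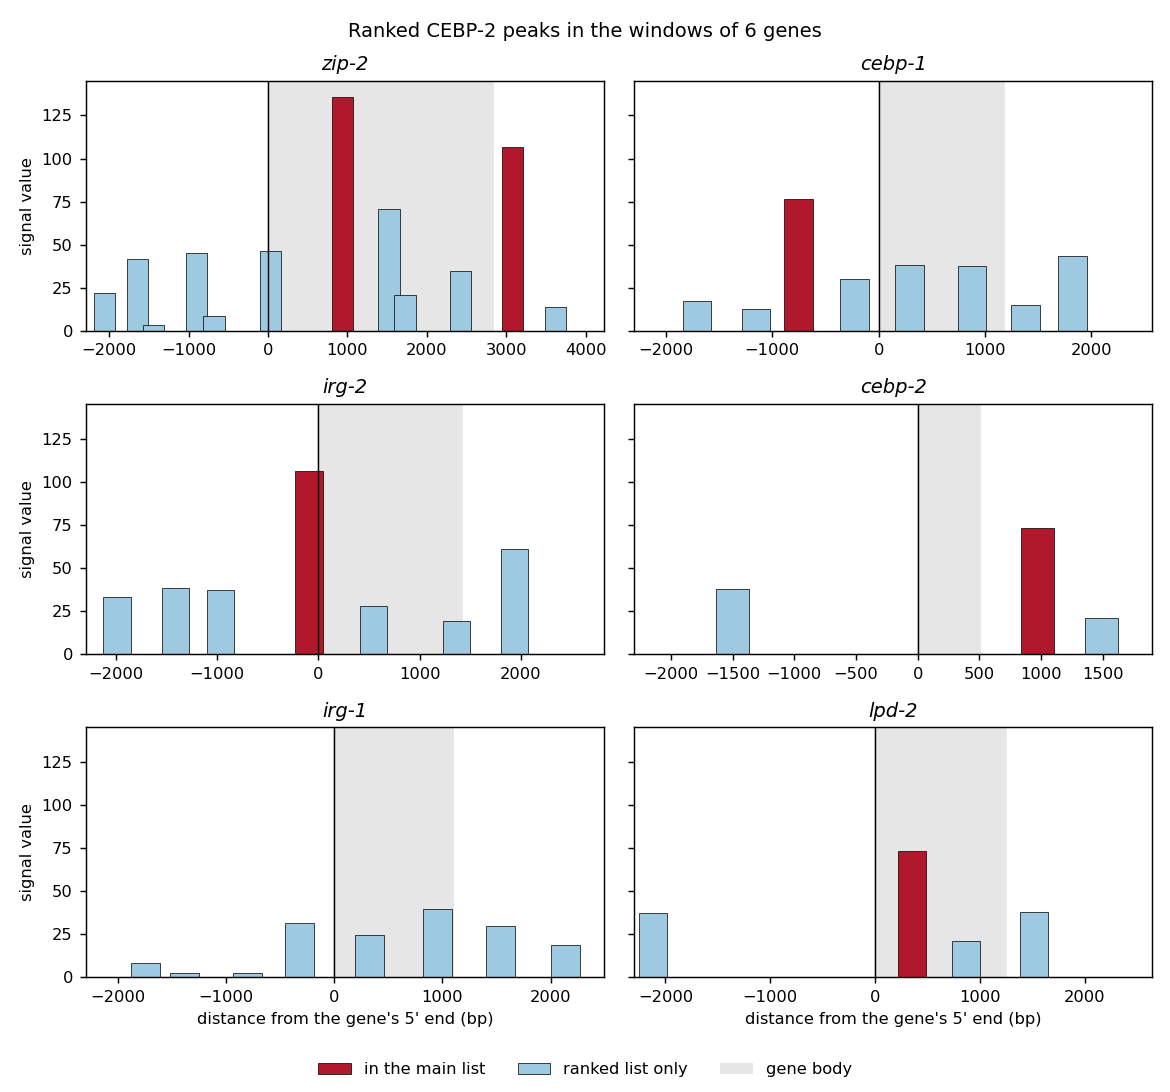
Ranked peaks of both replicates together in the windows of the 6 genes. Each bar is a peak, drawn over the bases it covers (x axis, distance in bp from the gene's 5' end, in the direction of transcription) with its signal value as height (y axis); red bars are in the main list, and the grey band is the gene body. zip-2 has red bars of 136 and 107, irg-2 has 106 at its 5' end, and irg-1 has none, with bars up to 39.6.

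Across all 6 windows, drawn in the plot of peaks by position, 39 distinct ranked peaks were found. Of them 12.8% were in the main list, against 1.26% of the whole ranked list. As the genes were chosen with earlier results known, this too is a description only. The 5 main peaks had signals from 73.3 to 136, and the others from 2.13 to 70.5 with a median of 29.7. The ranked peaks with a score of 830 or more in these windows were the 5 main peaks, so none was missing from the main list. In the whole list 116 of 1535 such peaks were missing, and 5 peaks are too few to set against that share. The GC content of the 5 main peaks had a median of 45.9% (34.4% to 53.7%), near the 44.4% of all main peaks, while that of the 39 peaks had a median of 37.8%, near the 38.5% of all ranked peaks. The main peaks thus lay in different places relative to the genes: between genes upstream at cebp-1 and irg-2, in introns at zip-2 and lpd-2, and in the exon of a neighbouring gene past the end of zip-2.

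A ranked peak of any strength was present in 90.2% of gene windows, and in all 6 described here, so the signal was set against other genes. The highest signal in each window was ranked among windows of the same extent placed at the 5' ends of other protein-coding genes, 19969 for most genes and 19967 for zip-2, with ties counted at their midpoint. zip-2 was at the 99.2 percentile, with 168th place. irg-2 was at 98.5, cebp-1 at 95.9, cebp-2 at 95.7 and lpd-2 at 95.01, and the last 3 had nearly the same signal. irg-1 was at 49.5, in the middle of other genes, whose median was 39.8 in windows of its extent. By number of peaks the order was another: zip-2 was at the 96.4 percentile, irg-1 at 89.7, cebp-1 at 88.5, irg-2 at 69.2, lpd-2 at 26.4 and cebp-2 at 24.3. This order by number did not hold on the replicates' own ranked lists. There cebp-2 was at 73.0 in replicate 1 and 88.5 in replicate 2, lpd-2 at 80.2 and 89.9, and irg-1 at 44.4 and 47.5.

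**Figure D2:**
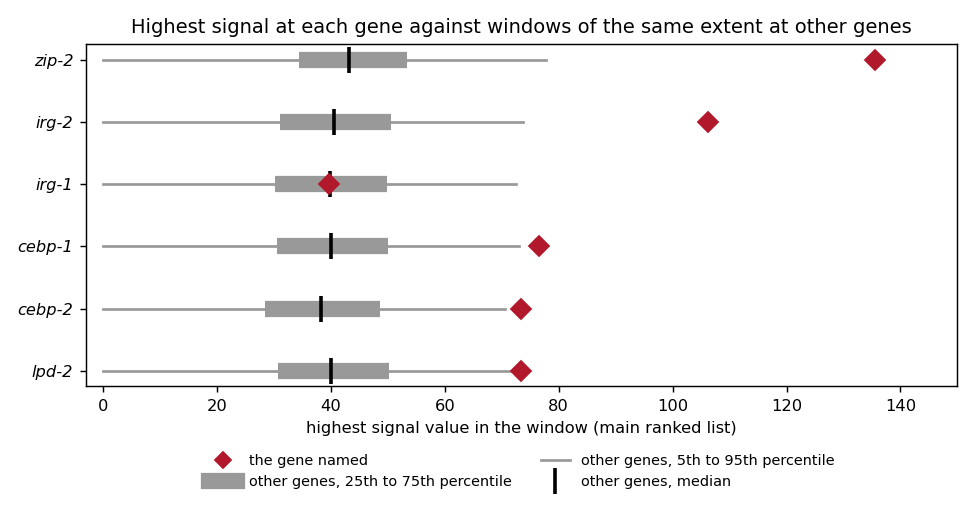
Highest signal value in the window of each gene (red diamonds; x axis, signal value on the main ranked list) beside windows of the same extent at other protein-coding genes (thick grey bar, 25th to 75th percentile; thin line, 5th to 95th; black tick, median). zip-2 at 136 and irg-2 at 106 lie far to the right of the grey lines, cebp-1, cebp-2 and lpd-2 lie at their right ends, and irg-1 at 39.6 lies on the median.

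In windows of their own extent, a main peak was found at 6.58% of other genes for cebp-1, 5.82% for cebp-2, 6.69% for lpd-2, 8.49% for zip-2, 6.48% for irg-1 and 6.92% for irg-2. At least 2 main peaks, as at zip-2, were found in 1.44% of windows of the zip-2 extent, and in 1.65% of genes in windows of their own. In the narrow windows, from 1000 bp upstream to the gene end, 4 of the 6 genes kept a main peak, against 5.83% of all genes, and the same 4 a conservative one, against 4.54%. All but cebp-2 kept a ranked peak there, as did 87.7% of genes.

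Each replicate alone gave fewer thresholded peaks. The own list of replicate 1 had 254 peaks and reached 3 of the 6 genes, zip-2, cebp-2 and lpd-2, the last 2 by a single shared peak, against 1.96% of all genes. The own list of replicate 2 had 386 peaks and reached zip-2 and irg-2, against 2.77% of genes. In the narrow windows replicate 1 reached lpd-2 alone, against 1.16%, and replicate 2 reached zip-2 and irg-2, against 1.66%. zip-2 was the only gene of the 6 with a peak in both own lists, and cebp-1 and irg-1 had one in neither. In replicate 1 the zip-2 window was reached only by the peak in dos-3 past the gene end.

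The own ranked lists placed the genes in much the same range except irg-1. Among windows of the same extent, zip-2 was at the 99.1 percentile in replicate 1 and 99.4 in replicate 2. irg-2 was at 92.1 and 99.1, and cebp-1 at 86.6 and 94.0, both lower in replicate 1. cebp-2 was at 97.9 and 93.6 and lpd-2 at 97.6 and 92.6, both lower in replicate 2. irg-1 was at 87.3 in replicate 1 and 21.7 in replicate 2, so its place among genes differed widely between the replicates, and its peak in replicate 1 had a score of 88. With 2 replicates of 1 group and no contrast, no test was made.

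**Figure D3:**
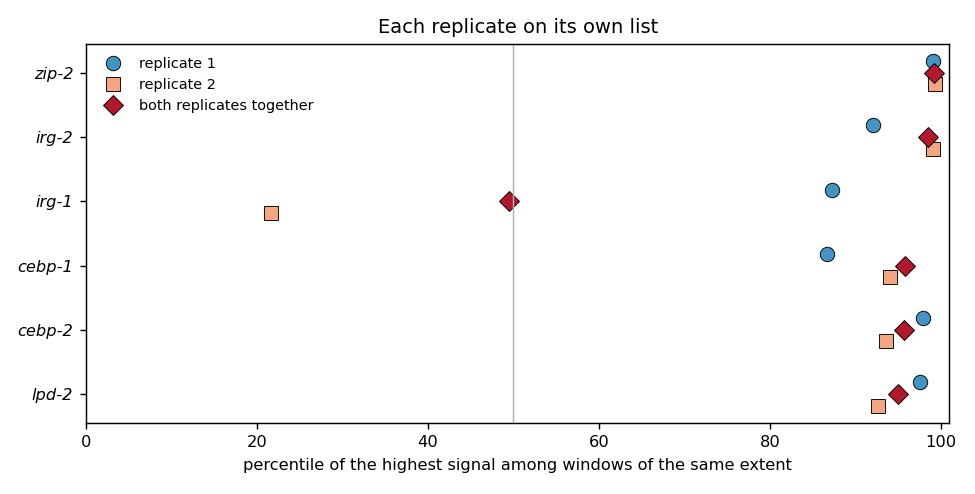
Percentile of each gene's highest signal among windows of the same extent at other genes (x axis), for replicate 1 (circles), replicate 2 (squares) and both together (diamonds), each on its own ranked list; the grey line is the 50th percentile. All genes but irg-1 lie at 86.6 or higher in every list, and irg-1 lies at 87.3, 21.7 and 49.5.

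The labels name cebp-2 and unc-119(+) in the insertion, and reads from such added copies could map to the native genes. The ranked peaks within 20 kb of cebp-2 had a high mean signal in all 3 lists, while their number was low on the list of both replicates alone. Within 20 kb to either side of the gene there were 30 ranked peaks, at the 13.2 percentile of the same span at 19936 other genes, whose median was 49. Their mean signal was 47.4, at the 99.5 percentile, against a median of 25.1. Replicate 1 gave the 99.5 percentile and replicate 2 the 99.3 for the mean signal on their own lists. Within 5 kb the mean signal was at the 98.3 percentile for both together, but at 94.1 in replicate 1 and 80.8 in replicate 2. By number the own lists were near the middle, with 24 peaks in replicate 1 (64.4 percentile, median 22) and 28 in replicate 2 (44.2 percentile, median 29). The span held 4 main peaks, at the 98.4 percentile. The highest, chrI:6264993-6265262, had a signal of 203 and its summit lay 12046 bp after the cebp-2 start.

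Upstream there was a stretch of 15077 bp without any ranked peak, chrI:6236371-6251447, which ended 1634 bp before cebp-2. It was 468th by length among 100856 stretches between ranked peaks, whose median was 380 bp. The own lists had a like gap, of 12160 bp in replicate 1 and 13758 bp in replicate 2. It covers most of C48E7.6, spp-15 and the start of cof-2, the gene that ends 205 bp upstream of cebp-2. On the other side lpd-2 and then let-611, 1450 bp past the cebp-2 end, follow. Around unc-119, the other gene named in the insertion, 49 ranked peaks lay within 20 kb. Their mean signal was 21.9, at the 9.83 percentile, and no main peak was among them. The unc-119 window held 13 ranked peaks up to a signal of 43.9, at the 52.4 percentile of genes in windows of their own. The labels do not say which bases the insertion holds, so its part in the signal at cebp-2 and lpd-2 was not tested.

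**Figure D4:**
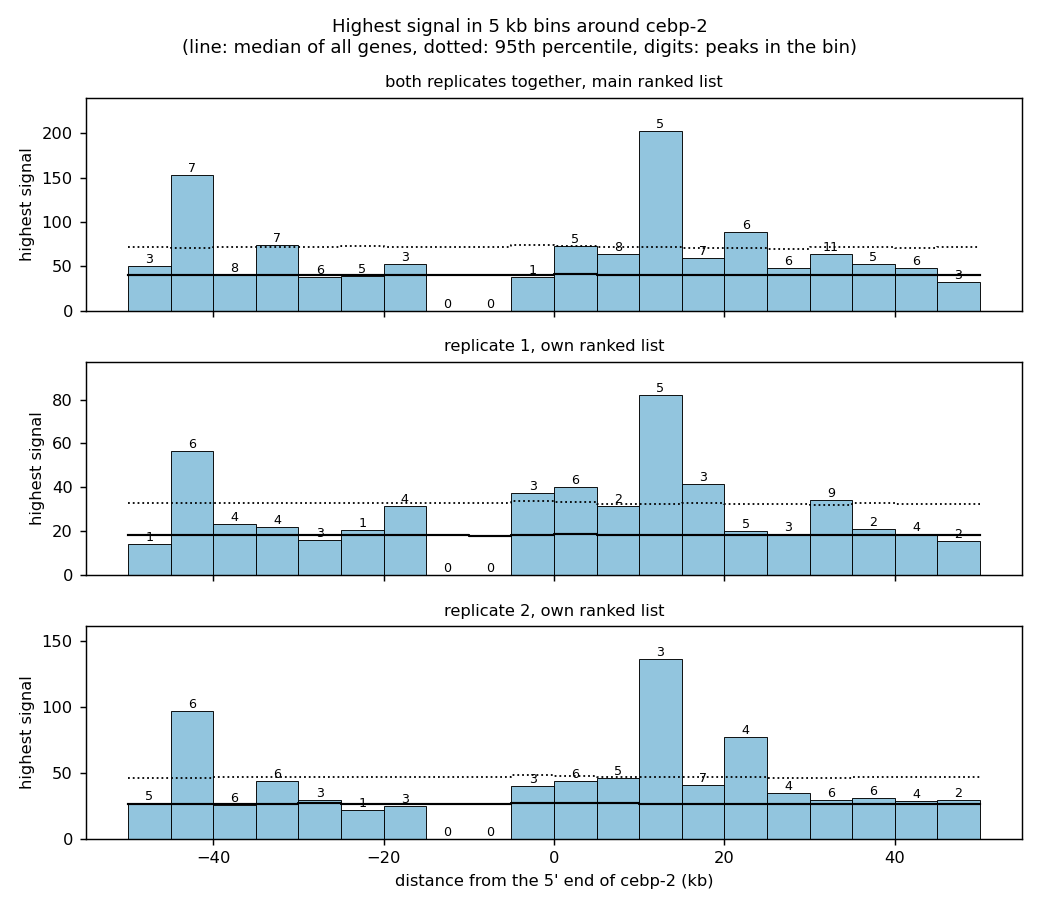
Highest signal value (y axis) of the ranked peaks in bins of 5 kb around the 5' end of cebp-2 (x axis, distance in kb), for both replicates together and each replicate's own list. The line is the median and the dotted line the 95th percentile of the same bin at all genes, and the digits count peaks in each bin. The bins from 15 kb to 5 kb upstream hold 0 peaks in all 3 panels, and the highest bar, up to 203, lies 10 kb to 15 kb downstream.

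Genes related to the 6 by family or pathway were taken from lists, with peaks counted in each gene's own window. Of 29 bZIP genes matched by symbol (atf-5 was not matched), 10 had a main peak, or 34.5%, against 8.93% of all genes. The 29 include zip-2, cebp-1 and cebp-2, which are among the 10 and were chosen with earlier results known, so they raise this share. The windows of the 29 were longer than most, and windows of the same extents held a main peak in 11.0% of cases on average. The median highest signal of the 29 was 59.8, against 43.1 over all genes. By signal the 10 were zip-11 (147), zip-2, zip-7 (116), zip-3 (96.4), atfs-1 (81.5), xbp-1 (80.7), cebp-1, cebp-2, crh-1 (73.2) and atf-7 (59.3). The highest peak in the window lay inside the gene at zip-2, zip-7, zip-3, atfs-1, xbp-1 and crh-1, and upstream at cebp-1. At zip-11 it lay past the gene end, between genes, and at atf-7 past the end in the 3' UTR of cpg-1. That of cebp-2 was in the intron of lpd-2. ATFS-1 drives the mitochondrial unfolded protein response, XBP-1 that of the endoplasmic reticulum, and CRH-1 is the worm CREB. All of them except crh-1 also had a conservative peak, 9 in all. The own lists were less rich: 3 bZIP genes had a thresholded peak in replicate 1 (zip-2, cebp-2 and atf-7) and 3 in replicate 2 (zip-2, zip-7 and zip-11). zip-2 stood second to zip-11, and was the only gene of the 29 in both own lists. In replicate 1 this rested on the peak in dos-3 past the zip-2 end alone.

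For each bZIP gene of the 6, the other bZIP genes nearest in the pair of replicate percentiles, over 2 samples and in windows of their own, were named. zip-2 (99.0 in replicate 1 and 99.4 in replicate 2) was nearest to zip-11, 1.77 percentile points away, and zip-3, 3.58 away. cebp-1 (82.0 and 92.1) was nearest to crh-2, 3.96 away, and xbp-1, 4.09 away. cebp-2 (96.8 and 90.4) was nearest to atf-7, 1.48 away, and skn-1, 5.39 away.

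Of 8 genes with irg symbols, irg-2 was the only one with a main peak (12.5%, with 8.10% in windows of like extents). irg-8 came next with a signal of 69.0, then irg-4 with 64.6, both without a main peak, and irg-1 was among the 3 below the median of all genes. Of 7 genes of the p38 immune pathway, the kinase cascade that defends the intestine alongside ZIP-2, 3 had a main peak (42.9%, with 15.2% in windows of like extents). The adaptor gene tir-1 had 6 main peaks in a window of 35053 bp and a highest signal of 118.8, the phosphatase gene vhp-1 had 1 main peak and a highest signal of 76.0, and atf-7, which encodes the bZIP factor at the end of the pathway, had 2. The core kinases nsy-1, sek-1 and pmk-1 had none, with highest signals of 59.3, 45.6 and 32.7.

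Of 7 genes of the DLK-1 pathway, which acts upstream of CEBP-1 in neurons, dlk-1 itself was the only one with a main peak (14.3%, with 10.8% in windows of like extents), and it had 2, a highest signal of 64.3 and none in the conservative list. The kinase gene pmk-3 had the next highest signal, 59.6. Of 10 genes of the intracellular pathogen response, a program set off by other pathogens, 0 had a main peak (with 8.21% in windows of like extents). The highest signals were 59.4 in the pals-22 window and 52.5 at the neighbours pals-6 and pals-14, which shared that peak. The peak in the pals-22 window had a score of 137 and lay in the 3' UTR of C29F9.2, and the shared peak had a score of 375. Of 14 lipogenic genes, set beside lpd-2, 4 had a main peak (28.6%, with 10.4% in windows of like extents): the desaturase genes fat-1 (signal 123, with 4 main peaks) and fat-2 (100.4), pod-2 for acetyl-CoA carboxylase and the elongase gene elo-5. At pod-2 and elo-5 the peaks of highest signal in the windows, 63.4 with a score of 776 and 56.6 with a score of 165, were not the main peaks. The desaturase gene fat-6 had a peak in the conservative list alone.

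**Figure D5:**
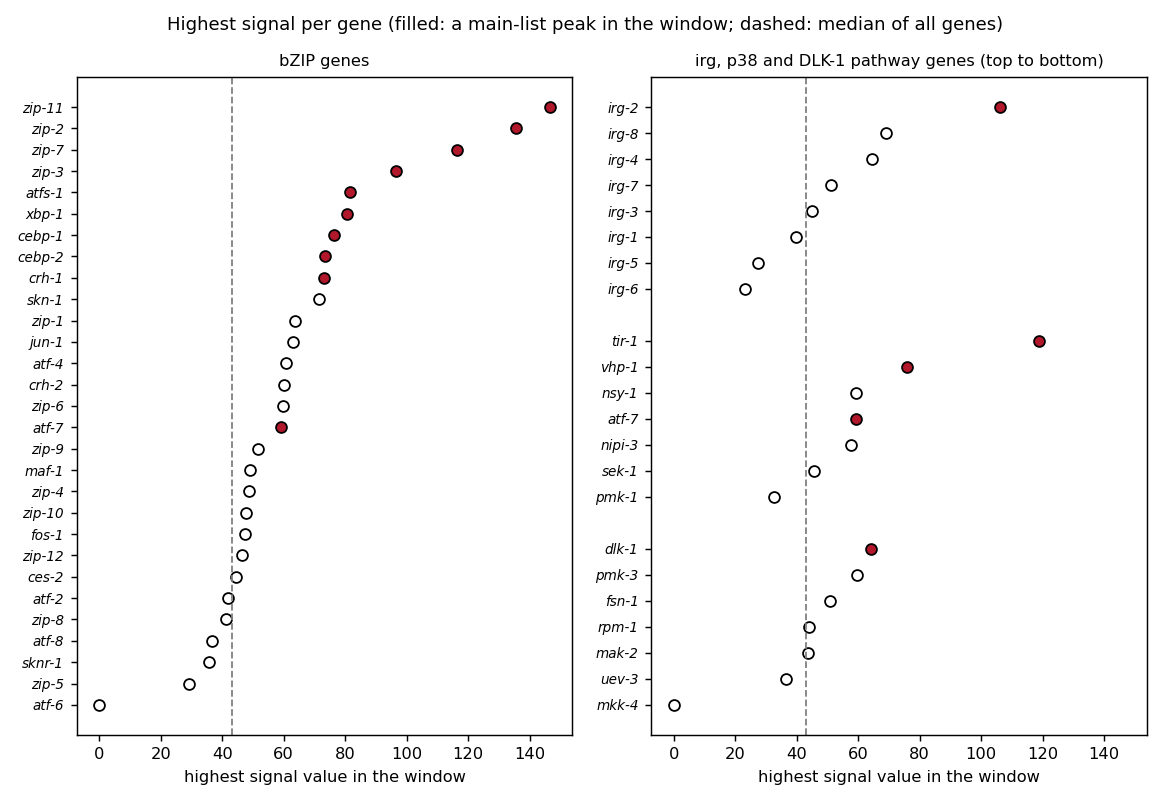
Highest signal value in the window of each bZIP gene (left) and each irg, p38 and DLK-1 pathway gene (right, top to bottom); filled points have a main peak in the window, and the dashed line is the median of all genes, 43.1. zip-11 and zip-2 lead the bZIP genes, irg-2 leads the irg genes with irg-1 just under the line, and tir-1 leads the p38 genes.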

How the data were processed

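Reads were aligned to ce11 separately for each of the 2 replicates, per the file headers. No source used here names the aligner or the peak caller, or their options. The authors deposited ranked and thresholded peak lists, and the thresholded lists derive from a further unnamed file, per the file headers. The deposited signal value (normalization not stated), the deposited score, the deposited −log10 of the global IDR and the deposited summit position were used as they stand, within each list only. The main ranked list was the one that held all 1419 main peaks. Genes came from Ensembl release 115 (WBcel235, the same assembly as ce11), and sequences from the RefSeq genome of that assembly. Windows, counts and percentiles were computed with Python 3.11.15, NumPy 2.4.6 and pandas 2.3.3, and tested on simulated data. Windows that ran past a chromosome end were kept out of the percentiles.

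The genes named were the 6, unc-119, those nearest to cebp-2, the 2 nearest bZIP genes in replicate percentiles, and of each list the genes with a main or conservative peak and the 2 of highest signal. The kinase genes nsy-1, sek-1 and pmk-1, irg-4 and the genes at a named peak were added after their values were seen. The members and lists were chosen with earlier results of these data known. No p-value was computed: there is 1 group of 2 replicates, and no control data were used here.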

Additional observations from a re-analysis of the deposited data

How the results depend on the processing

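The median percentile of the 6 windows, 95.8, was 97.2 in the narrow windows, 94.0 with each other gene in its own window, 97.9 by score, 78.8 by number of peaks and 93.8 to 94.8 on the own list of 1 replicate. The median highest signal, 74.9, was 35.2 to 44.9 on the own lists, whose signal scales differ. The median number of ranked peaks per window, 7.5, was 4 in the narrow windows and 3.5 to 5 on the own lists. The number of genes with a thresholded peak, 5, was 2 to 3 on the own lists. The percentile of the mean signal within 20 kb of cebp-2, 99.5, was 98.3, 98.1 and 97.7 within 5 kb, 10 kb and 50 kb. Within 20 kb it was 99.3 to 99.5 on the own lists, and 13.2 by number of peaks. Within 5 kb the own lists gave 94.1 in replicate 1 and 80.8 in replicate 2. The conservative lists did not move the medians, or the number of genes with a thresholded peak, beyond the limits used. Placing peaks by their summit did not move the medians beyond them either. On the conservative ranked list the mean signal within 20 kb of cebp-2 was at the 99.7 percentile. For single genes, 10 of 48 alternative percentiles moved by more than that gene's own spread between replicates. This spread ran from 0.223 percentile points at zip-2 to 46.4 at irg-1. irg-1, at 87.3 and 21.7 on the own lists, was thus not counted as moved, so the count does not measure how stable the genes were. The largest loss was at cebp-2, whose narrow window held no peak and fell to the 8.51 percentile. TTTCGCAA, chosen after seeing the data, was in 2 main peaks at these genes and TTGCNNAA in 3. No paired analysis was possible because there is 1 group. The results rest on 2 replicates of called peaks, and no read counts or control data were used here. The peaks come from a strain with extra copies of cebp-2. The worms were whole, so tissues cannot be told apart, and weak peaks may have gone undetected.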
